A study of Mus musculus with 2 samples.

Results

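The Mir322 cluster is a run of 7 microRNA hairpins on the mouse X chromosome, Mir322, Mir503, Mir351, Mir542, Mir450a-2, Mir450a-1 and Mir450b. The 7 genes were taken by name from the 2202 microRNA genes of the deposited tables. They were measured in C2C12, a myoblast line derived from injured thigh muscle of C3H mice, which grows as undifferentiated cells and forms myotubes when serum is withdrawn. The study holds 1 group of C2C12, with 2 replicates, treated here as biological, and 1 small RNA library from each (RNA below 30 nucleotides). The labels give no culture stage, treatment or genetic change, so the libraries can be compared with each other but not between conditions.

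A microRNA gene is transcribed as part of a long primary transcript, from which the enzyme Drosha cuts hairpins and Dicer then cuts short duplexes. One strand of the duplex, the mature microRNA, is loaded into an Argonaute protein and pairs with messenger RNAs mainly through its seed, bases 2 to 8. Hairpins that lie close together on one strand can come from 1 primary transcript. In mouse muscle cells miR-322, the counterpart of human miR-424, and miR-503 are known to rise during differentiation and to repress Cdc25a, a phosphatase that drives the cell cycle, and so to favour withdrawal from it. Mouse miR-351 is known to repress E2f3, a transcription factor of the cell cycle, in muscle progenitors. Human miR-542-3p is known to repress survivin, an inhibitor of cell death.

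The mature sequences are shown because the seeds decide which other genes of the genome a member resembles. In the following lines each seed is in capitals, 5′ to 3′, as given by RefSeq on GRCm38.p6.
miR-322-5p: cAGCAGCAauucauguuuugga
miR-503-5p: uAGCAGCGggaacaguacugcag
miR-351-5p: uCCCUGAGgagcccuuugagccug
miR-542-3p: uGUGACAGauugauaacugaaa
miR-450a-5p: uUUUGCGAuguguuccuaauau
miR-450b-5p: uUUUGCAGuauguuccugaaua
All 7 members matched this table, which holds 14 mature entries for them with 12 different seeds. The mature RNAs are 21 to 24 bases long. miR-322-5p and miR-503-5p have the same base at 6 of the 7 seed positions, and no seed of the lines above is shared by 2 members except that of miR-450a-5p, which Mir450a-1 and Mir450a-2 both encode.

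Those 2 hairpins are printed whole because their shared arm limits how their reads can be counted. Capitals mark the mature arms, and the first arm in each is miR-450a-5p.
Mir450a-2: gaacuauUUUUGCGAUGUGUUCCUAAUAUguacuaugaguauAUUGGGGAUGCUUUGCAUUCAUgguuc
Mir450a-1: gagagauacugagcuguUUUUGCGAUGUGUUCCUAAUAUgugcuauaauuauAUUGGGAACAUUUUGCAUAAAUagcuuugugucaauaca
They share an unbroken stretch of 25 bases, which holds the whole of miR-450a-5p, while their 3′ arms differ. Mir450a-1 and Mir450b share 19 bases. Mir322, Mir503, Mir351 and Mir542 share at most 13 bases with any other of the counted microRNA genes. A read of miR-450a-5p therefore fits both hairpins, and the counts of Mir450a-1 and Mir450a-2 are uncertain, whereas the other members have no such copy. The counts are per hairpin and do not separate its arms.

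On mm10 all 7 hairpins lie on the minus strand of chromosome X and within 6353 bases. In the order of transcription they are Mir322 (53054255 to 53054349), Mir503 (53053984 to 53054054), Mir351 (53053255 to 53053353), Mir542 (53049403 to 53049487), Mir450a-2 (53048299 to 53048367), Mir450a-1 (53048154 to 53048244) and Mir450b (53047997 to 53048078). Mir503 follows Mir322 after 200 bases and Mir351 follows Mir503 after 630 bases. The widest gap, of 3767 bases, separates Mir351 from Mir542, and the 3 Mir450 hairpins are 54 and 75 bases apart. None of the 7 overlaps another gene of GENCODE M21, so none is annotated as exonic or intronic. The non-coding gene Gm28730 lies on the same strand in the widest gap (53051194 to 53053159), and the non-coding gene C430049B03Rik ends 696 bases upstream of Mir322 (53055046 to 53057190).

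**Figure D1:**
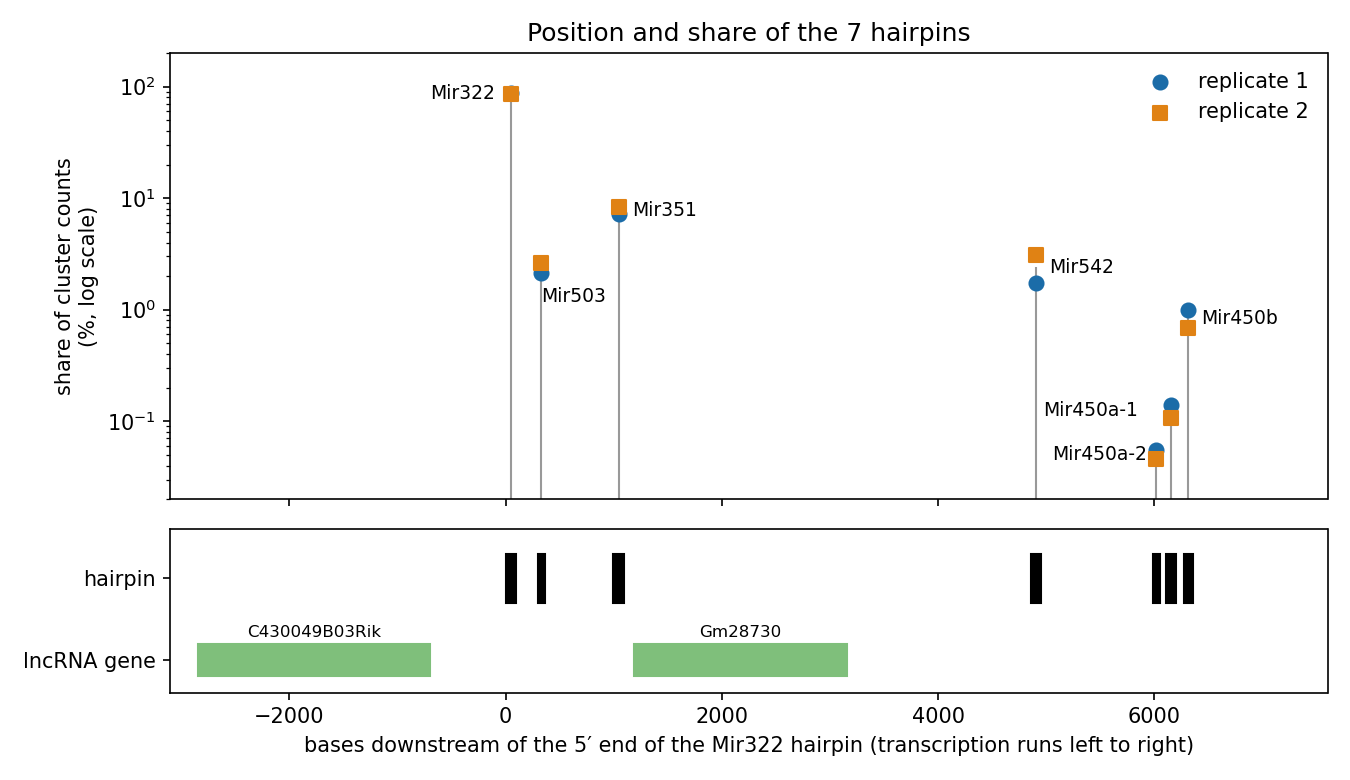
Upper panel, share of each hairpin in the summed counts of the cluster (percent, log axis) against its distance in bases downstream of the 5′ end of the Mir322 hairpin, with 1 point per library and a grey line to the mean. Lower panel, the hairpins (black) and the 2 non-coding genes of the same strand (green), to scale; Mir322, the first hairpin, holds 87.7% and 85.2% of the counts and Mir450a-2 the least.

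Replicate 1 held 27661907 reads counted on the strand of a microRNA gene and replicate 2 held 15025315. Mir21a alone took 23.1% of these in replicate 1 and 53.5% in replicate 2, so the other genes together had a smaller part of the total in replicate 2. Levels are given per 1000000 counted reads (CPM). Reads with several places in the genome made up 33.4% and 22.8% of all reads of replicates 1 and 2. The muscle marker Mir206 stood at 2559 CPM in replicate 1 and 1028 CPM in replicate 2, and 2 of 6 muscle markers were detected. The other, Mir133b, had 88.0 and 20.4 CPM in replicates 1 and 2. Its hairpin shares 21 bases with Mir133a-1, so its level is uncertain. Mir1a-2, which shares 28 bases with Mir1a-1, had 3 reads in replicate 1 and 0 in replicate 2. Mir1a-1, Mir133a-1 and Mir133a-2 had 0 reads, but their hairpins share 28 or 31 bases with a copy, so these zeros set no limit. Among markers of other cells, 1 of 3 for blood was detected, Mir142 at 215 and 122 CPM in replicates 1 and 2, and the blood list summed to 216 and 124 CPM. The liver marker Mir122 had 3.90 and 1.26 CPM, and none of 6 neuronal and 4 pluripotent cell markers was detected. Each neuronal marker, and Mir302a and Mir302b among the pluripotent ones, shares at least 20 bases with a copy, so their low counts set no limit either. The part of these markers in the levels below was not tested.

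The whole cluster was expressed in both libraries, and most of its reads were on Mir322. The 7 genes had 290247 reads in replicate 1, against 86984 in replicate 2. This was 1.05% of the counted reads in replicate 1 (exact binomial 95% interval 1.045 to 1.053) and 0.579% in replicate 2 (0.575 to 0.583), a mean of 0.814% ± 0.333 (SD, n = 2). With Mir21a left out of the total, the shares were 1.36% in replicate 1 and 1.25% in replicate 2, or 1.30% ± 0.0836 (SD, n = 2). All 7 members were detected, that is, reached 1 CPM in both libraries, as did 320 of the 2202 genes. At 10 CPM in both there were 5 members and 192 genes, and at 1000 CPM 1 member and 62 genes. The intervals hold the counting error of reads alone. Where amplified reads repeat 1 molecule, the intervals are too narrow. In bulk RNA, fewer cells that express the cluster and less of its RNA per cell cannot be told apart.

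Mir322, the first hairpin of the run, had 254450 reads in replicate 1 and 74122 in replicate 2, or 9199 and 4933 CPM. Its mean was 7066 ± 3016 CPM (SD, n = 2). It ranked 23rd among all genes in each library, so its place did not move although its CPM was higher in replicate 1. Levels are not divided by hairpin length here, since a read covers a mature RNA of about the same length in every member. Mir322 alone made up 87.7% of the cluster in replicate 1 (87.5 to 87.8) and 85.2% in replicate 2 (85.0 to 85.4).

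The other cell cycle members were lower. Mir351 came next with 762 CPM in replicate 1, against 478 CPM in replicate 2, and averaged 620 ± 201 CPM (SD, n = 2). Mir322 had 12.1 reads for each read of Mir351 in replicate 1 and 10.3 in replicate 2, a gap far wider than the spread between the libraries. Mir503 stood at 225 CPM in replicate 1, against 151 CPM in replicate 2, and averaged 188 ± 52.2 CPM (SD, n = 2). It lies only 200 bases from Mir322, yet Mir322 had 40.9 and 32.7 reads for each of its reads in replicates 1 and 2. Mir503 took 2.14% of the cluster in replicate 1 (2.09 to 2.20) and 2.61% in replicate 2 (2.50 to 2.72).

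Downstream of the widest gap, Mir542 had 5029 reads in replicate 1 and 2683 in replicate 2. Its CPM was nearly the same in both, 182 and 179, with a mean of 180 ± 2.29 CPM (SD, n = 2). Mir542 and Mir503 were neighbours in level whose order changed, since Mir503 was the higher in replicate 1 and Mir542 in replicate 2. Their means do not differ beyond the spread between the libraries. Mir450b followed with 105 CPM in replicate 1, against 39.3 CPM in replicate 2, and averaged 72.0 ± 46.3 CPM (SD, n = 2).

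The Mir450a pair was the lowest. Mir450a-1 had 408 reads in replicate 1 and 93 in replicate 2, or 14.7 and 6.19 CPM. Mir450a-2 had 160 and 40 reads, or 5.78 and 2.66 CPM. Mir450a-1 was above Mir450a-2 in each library, and their means were 10.5 ± 6.05 and 4.22 ± 2.21 CPM (SD, n = 2 each), a gap that is close to the spread between the libraries. That spread is one of CPM, which was higher in replicate 1 for both genes. Within the pair, Mir450a-1 held 71.8% of the reads in replicate 1 (67.9 to 75.5) and 69.9% in replicate 2 (61.4 to 77.6). If reads with several places were left out of the counts, as the table's separate row for them allows, miR-450a-5p itself is missing from both values and the level of this pair is understated. Reads on the opposite strand of the 7 genes numbered 2 in replicate 1, both on Mir322, and 0 in replicate 2, where up to 3 counts remain possible.

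**Figure D2:**
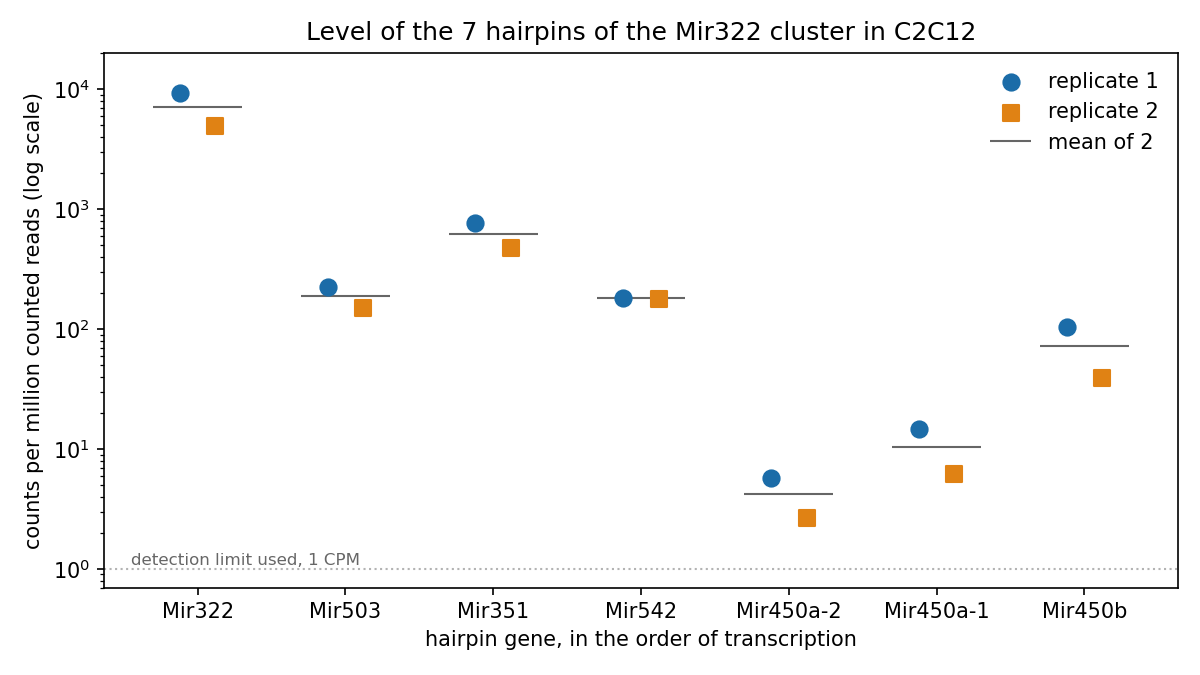
CPM (log axis) of the 7 hairpin genes in the order of transcription, with 1 point per library and a line at the mean of 2. Mir322 lies between 4933 and 9199 CPM and the other 6 genes between 2.66 and 762 CPM; the dotted line is the detection limit of 1 CPM.

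By position, the 3 hairpins upstream of the widest gap held 97.1% of the cluster reads in replicate 1 and 96.1% in replicate 2. The 4 downstream hairpins held 2.93% in replicate 1 and 3.92% in replicate 2. Level did not fall steadily along the run, because Mir351 was above Mir503 in each library. Mir450b was also above both Mir450a genes in each library. The Mir450a genes may lack reads of miR-450a-5p, so this second order is uncertain. The order of the 7 by CPM was the same in both libraries except for the exchange of Mir503 and Mir542.

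The libraries were then compared gene by gene, which asks how far 2 samples of 1 line differ, not whether a condition acts. Counts were scaled by the trimmed mean of M values (TMM) and an exact binomial test, two-sided, was run on each pair of counts and adjusted by the Benjamini-Hochberg method over the 556 genes with at least 10 counts. Of these genes, 231 (41.5%) passed 0.05, with 94 (16.9%) higher and 137 (24.6%) lower in replicate 1. Of the 7 members 4 passed, 1 higher and 3 lower in replicate 1. Genes with many reads pass more readily, and among all genes with a mean of at least 10 CPM 175 of 210 passed (83.3%), against 4 of the 6 members at that level (66.7%). The median absolute log2 ratio was 0.32 over the 7 members and 0.41 over all tested genes. At a mean of at least 10 CPM it was 0.34 over the members and 0.33 over all genes.

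After TMM scaling of genes with at least 10 counts, Mir322 did not differ detectably between replicate 1 and replicate 2. Its log2 ratio of replicate 1 over replicate 2 was 0.00 (counting SE 0.006, adjusted p = 0.945, exact binomial test). This rests on the scaling, since its log2 ratio was 0.06 with DESeq2 size factors, 0.17 by totals without Mir21a and 0.90 by library totals, each past 0.05 in the same test, and TMM factors from other count filters gave 0.04 and also passed. Mir542 was the member furthest from equal, lower in replicate 1 with a log2 ratio of -0.87 (counting SE 0.03, adjusted p = 3.77e-130, exact binomial test). Of the 210 genes with at least 10 CPM, 31 had a larger absolute log2 ratio than Mir542, and the SD of all 210 was 0.84. Its ratio thus exceeded counting noise and was close to 1 SD of the ratios of all these genes.

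Mir503 and Mir351 were also lower in replicate 1, with log2 ratios of -0.32 (counting SE 0.04, adjusted p = 1.34e-18) and -0.23 (counting SE 0.02, adjusted p = 8.06e-29) by the exact binomial test. Mir450b was higher in replicate 1, with a log2 ratio of 0.52 (counting SE 0.07, adjusted p = 9.59e-16, exact binomial test). Mir450a-1 and Mir450a-2 had log2 ratios of 0.35 (counting SE 0.17, adjusted p = 0.0746) and 0.21 (counting SE 0.25, adjusted p = 0.646) by the exact binomial test and did not pass. Mir450a-1 did pass by library totals (1.25), by totals without Mir21a (0.52) and with DESeq2 size factors (0.41, adjusted p = 0.0282, exact binomial test), and Mir450a-2 by library totals alone (1.11). With library totals in place of TMM, which moves every log2 ratio up by 0.90, Mir503, Mir351 and Mir542 had ratios of 0.57, 0.67 and 0.03, so the direction of these 3 rests on the scaling. By library totals 330 of 556 genes passed (59.4%), with 54.7% higher and 4.68% lower in replicate 1, beside 6 and 0 of the members. With DESeq2 size factors 41.5% passed, 19.2% higher and 22.3% lower, beside 3 members each way. With totals that leave out Mir21a 41.7% passed, 24.8% higher and 16.9% lower, beside 3 members each way. The summed cluster had a log2 ratio of -0.04 (counting SE 0.006) with TMM and 0.86 with library totals.

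Ratios within the cluster do not depend on the scaling. For each 1000 reads of Mir322 there were 19.8 reads of Mir542 in replicate 1 and 36.2 in replicate 2, which is a log2 difference of -0.87 (counting 95% interval -0.94 to -0.80). Mir503 had 24.4 reads per 1000 of Mir322 in replicate 1 and 30.6 in replicate 2, and Mir351 had 82.9 and 97.0. Mir450b went the other way, with 11.4 reads per 1000 of Mir322 in replicate 1 and 7.96 in replicate 2, a log2 difference of 0.52 (0.39 to 0.64). So the downstream hairpins Mir542 and Mir450b moved apart between the libraries, in opposite directions relative to Mir322. For Mir450a-1 the difference was 0.35 (0.03 to 0.68) and for Mir450a-2 0.22 (-0.28 to 0.72), which its 160 and 40 reads do not resolve from 0. As shares of the cluster, Mir542 took 1.73% in replicate 1 (1.69 to 1.78) and 3.08% in replicate 2 (2.97 to 3.20), and Mir450b took 0.998% (0.962 to 1.03) and 0.678% (0.625 to 0.735). With 2 libraries of 1 group, these intervals say that the 2 libraries differ and not how often samples of this line would.

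**Figure D3:**
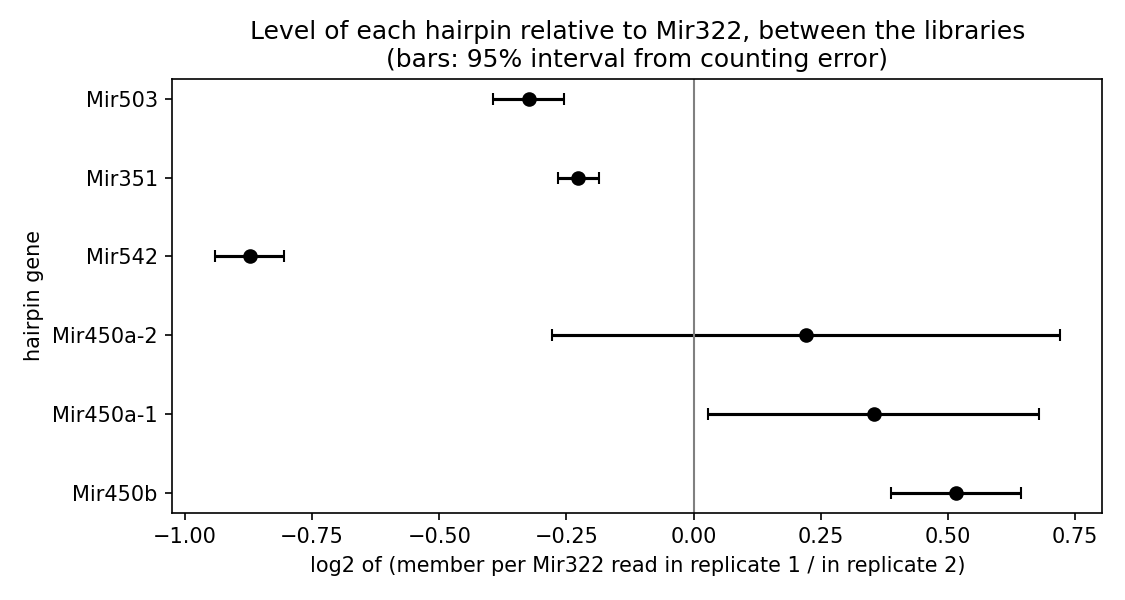
Log2 of the level of each hairpin per Mir322 read in replicate 1 over the same in replicate 2, with 95% intervals from counting error. Mir542, Mir503 and Mir351 lie below 0 (-0.87, -0.32 and -0.23), Mir450b and Mir450a-1 above 0 (0.52 and 0.35), and the interval of Mir450a-2 spans 0.

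The seed of miR-322-5p, AGCAGCA, is that of the miR-15 and miR-16 family, whose members also repress cyclins. It is carried by 10 other genes with a mature RNA in RefSeq. RefSeq gave mature RNAs for 1058 genes, and 1018 of these matched a counted gene by symbol. Seeds of the remaining counted genes were not searched. The mature RNAs of those of the 10 with at least 10 reads are shown beside miR-322-5p to compare what follows the seed.
miR-322-5p: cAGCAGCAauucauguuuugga
miR-15a-5p: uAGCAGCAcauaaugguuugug
miR-15b-5p: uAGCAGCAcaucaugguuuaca
miR-16-5p: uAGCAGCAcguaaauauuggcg
miR-195a-5p: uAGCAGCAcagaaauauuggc
miR-497a-5p: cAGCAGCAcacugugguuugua
Beyond the seed, counted without gaps from the 5′ end, miR-322-5p has the same base as miR-15b-5p at 9 of 14 positions and as miR-15a-5p at 8 of 14. It matches miR-497a-5p at 7, miR-16-5p at 5 of 14 and miR-195a-5p at 4 of 13 positions.

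Mir322 had the most counted reads among the 11 genes with this seed. It held 46.5% of their 547110 reads in replicate 1 (46.4 to 46.6) and 43.9% of their 168880 reads in replicate 2 (43.7 to 44.1), a mean of 45.2% ± 1.85 (SD, n = 2). Mir15a on chromosome 14 came next, with 27.9% in replicate 1 and 17.8% in replicate 2. Mir15b held 7.99% and 9.85%, Mir195a 6.14% and 9.30%, and Mir497 3.60% and 4.56% in replicates 1 and 2. Mir16-1 held 4.39% and 8.32% and Mir16-2 3.45% and 6.33%. The 2 Mir16 hairpins share 23 bases and both encode miR-16-5p, so their levels are uncertain like those of the Mir450a pair. If reads with several places were left out, miR-16-5p is missing from both. The share of Mir322 is then overstated and its first place uncertain. Mir195b had 1 read in each library, and Mir6342, Mir6353 and Mir6419 had none. The share of Mir322 moved little between the libraries while those of Mir15a and the Mir16 genes moved in opposite directions. These shares count all reads of a hairpin, so the part that is truly the seed-bearing arm is not known. No other gene with a mature RNA in RefSeq carries the seed of miR-503-5p, AGCAGCG.

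The seed of miR-351-5p, CCCUGAG, is that of miR-125, a family known from stem and progenitor cells. The relatives with at least 10 reads are shown for the same reason.
miR-351-5p: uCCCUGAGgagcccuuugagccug
miR-125a-5p: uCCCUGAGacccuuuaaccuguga
miR-125b-5p: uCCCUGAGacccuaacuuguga
Beyond the seed, miR-351-5p has the same base as miR-125a-5p at 2 of 16 positions and as miR-125b-5p at 2 of 14. Mir351 was a minor source here, with 6.83% of the reads of 6 genes in replicate 1 (6.74 to 6.92) and 8.21% in replicate 2 (8.03 to 8.39). Mir125b-1 held 47.8% and 57.9% and Mir125a 42.2% and 30.2% in replicates 1 and 2. Mir125b-2 held 3.16% and 3.69%, and it shares 24 bases with Mir125b-1, so the split between these is uncertain. Both encode miR-125b-5p. If reads with several places were left out, the sum of both is understated and the share of Mir351 overstated. Mir6367 and Mir6394 had no read. By counted reads Mir322 thus led its seed group, and Mir351 stood behind Mir125b-1 and Mir125a in its own. The lead of Mir322 may rest on how reads of miR-16-5p were counted.

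**Figure D4:**
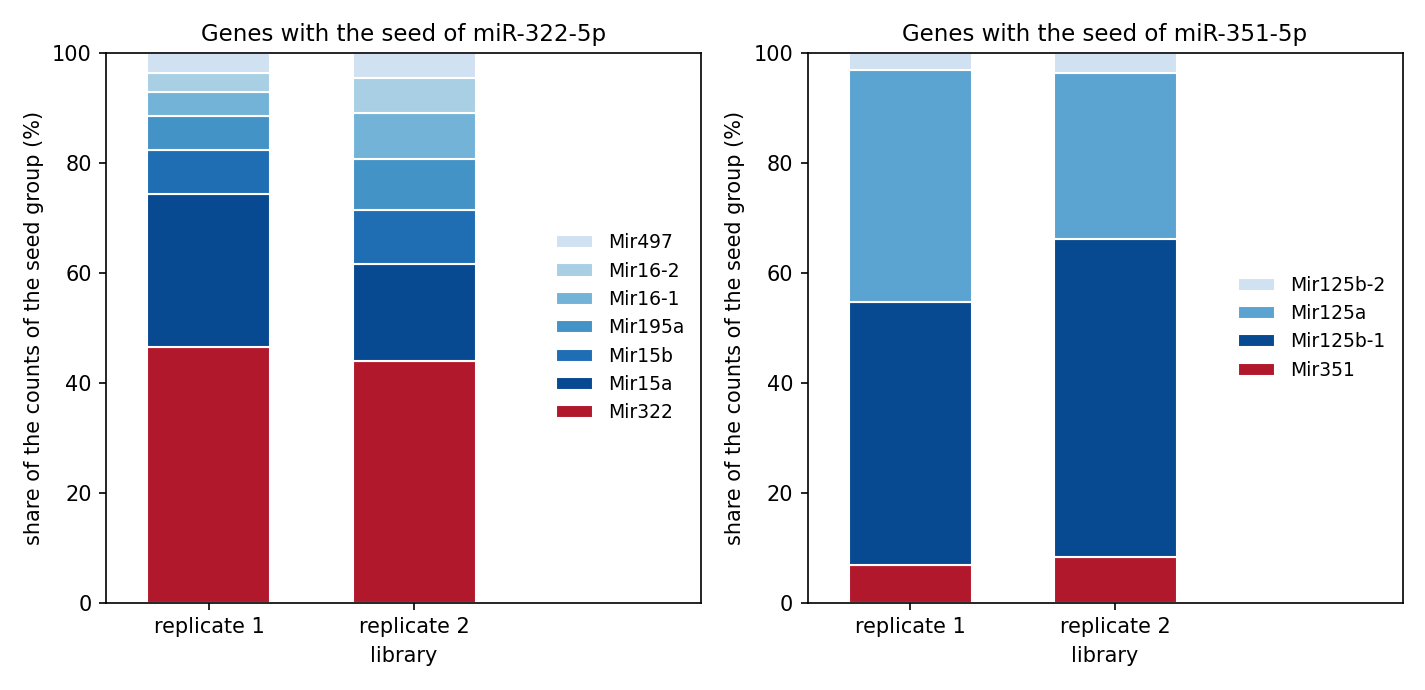
Share of each gene in the counts of all genes that carry the seed of miR-322-5p (left) or of miR-351-5p (right) in RefSeq, in percent, for replicate 1 and replicate 2; genes with under 10 counts are left out. Mir322 (red) holds 46.5% and 43.9% of its group and Mir351 (red) 6.83% and 8.21%.

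Among the genes with a mature RNA in RefSeq, the seeds of the other members were nearly private to the cluster. The seed of miR-542-3p, GUGACAG, and that of miR-450b-5p, UUUGCAG, occur in no other of these genes. That of miR-450a-5p, UUUGCGA, occurs in the Mir450a pair alone. The 3′ arms of Mir450a-1 and Mir450b share UUGGGAA with Mir6352, which had no read, and the 5′ arm of Mir542 shares UCGGGGA with Mir6966, which had 7 reads in replicate 1 and 1 in replicate 2.

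To place the unequal levels inside the run, all runs of at least 3 microRNA genes on 1 strand were taken, with neighbours at most 10 kb apart and at least 1000 counts in each library. There were 11 such clusters. In the Mir322 cluster the leading gene held 86.4% ± 1.73 of the reads (SD, n = 2), and the median over the 10 other clusters was 61.6%. Only those led by Mir449a (99.2%) and Mirlet7d (96.1%), of 3 genes each, had a higher mean share. The cluster led by Mir23a, also of 3 genes, came next below with 82.4% ± 4.16 (SD, n = 2). Among the 3 other clusters of at least 5 genes, Mir532 led its 5 genes with 52.1%, Mir17 its 6 genes with 51.0% and Mir467d its 119 genes with 35.9%. Of those 119 genes, 13 had at least 10 counts over both libraries. So no other cluster of at least 5 genes was as one-sided by counted reads in these libraries. This is a description for which no test was made. Genes with near-identical copies, such as the Mir450a pair, may lack reads. The genes of the other clusters were not all searched for such copies, and the effect on the leading shares was not tested. Among genes with at least 100 reads in each library, the log2 ratios between the libraries spanned 1.39 within the Mir322 cluster, from Mir450b to Mir542, and 0.11 to 1.29 within the 9 other clusters with at least 2 such genes. A span grows with the number of genes, and the Mir322 cluster has 5 here against 3 to 6 in the others. With neighbours at most 3 kb apart the run holds Mir322, Mir503 and Mir351 only and spans 0.32, less than 7 other clusters.

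**Figure D5:**
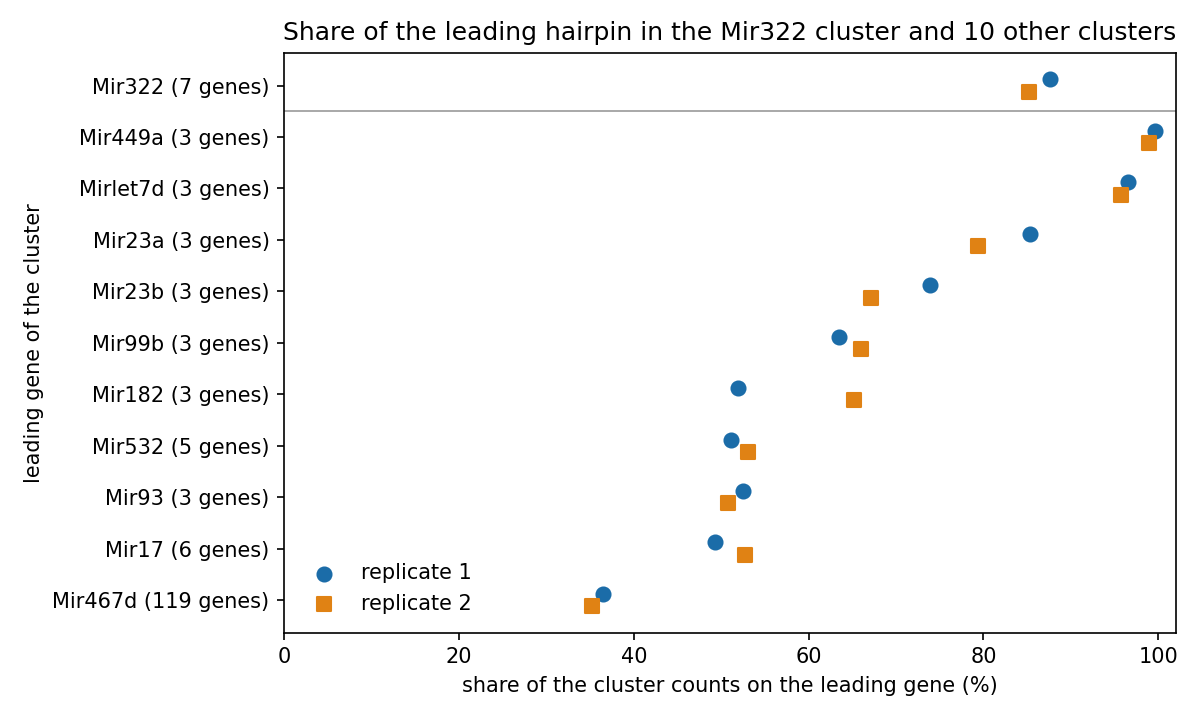
Share of the leading gene in the counts of its cluster (percent) for the Mir322 cluster (top) and 10 other clusters in falling order, with 1 point per library. The Mir322 cluster lies at 87.7% and 85.2%, and the clusters led by Mir17, Mir532 and Mir467d, which also have at least 5 genes, lie between 35.3% and 53.0%.

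In level, the genes nearest to Mir322 were Mir155, Mir100 and Mir20a, by the distance between log2 CPM values over the 2 libraries. Mir155, known from activated blood cells, had 8517 CPM in replicate 1 and 4850 in replicate 2, a distance of 0.11. Mir100 had 10118 and 4386 CPM, a distance of 0.22, and Mir20a of the Mir17 cluster had 12019 and 5278 CPM, a distance of 0.40. With only 2 libraries of 1 group such nearness describes level and carries no shared pattern across conditions.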

How the data were processed

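Small RNA libraries of 2 replicates of C2C12, numbered in the labels and treated as biological, were analysed. The authors deposited whole-number read counts per microRNA gene for either strand, the gene's strand and the opposite strand, on mm10 with the GENCODE M21 annotation per the deposited readme files. Which aligner and counter the authors ran was not stated in those sources. Rows for unmapped, multi-mapping, no-feature and ambiguous reads name no gene and were left out; they made up 49.7% of replicate 1 and 38.8% of replicate 2. Counts on the gene's strand were used per 1000000 of their sum. The Mir450a genes carry the symbols Mir450-1 and Mir450-2 in GENCODE M21. TMM factors came from edgeR 4.0.16 under R 4.3.3, and the exact binomial test from scipy 1.17.1, with a prior count of 0.5 in log2 ratios. The binomial test was tested on simulated counts that held counting noise alone. Such counts meet the assumption of the test, so this cannot tell how it behaves between real libraries. DESeq2 1.42.0 size factors, library totals with and without Mir21a, other count filters, either-strand counts and each library alone were tried. Sequences came from RefSeq (GRCm38.p6) and shared stretches of at least 20 bases in GENCODE M21 hairpins marked near-identical copies. The text names all members, the genes that share a seed with one, the 3 genes nearest to Mir322 in level and the other clusters of at least 5 genes. The clusters led by Mir449a, Mirlet7d and Mir23a were named after their values were seen. Members and lists were chosen with earlier results of these data known.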

Additional observations from a re-analysis of the deposited data

How the results depend on the processing

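No paired analysis was possible because the samples form 1 group. The mean share of the cluster in the counts, 0.814%, was 1.30% without Mir21a in the denominator and 0.441% of all reads, and lay between 0.579% and 1.05% in single libraries. The log2 ratio of the cluster sum, replicate 1 over replicate 2, was 0.86 by library totals, 0.13 by totals without Mir21a, 0.0223 with DESeq2 size factors, 0.00319 with no count filter and -0.00341 with at least 50 counts, against -0.04 with TMM. Members higher in replicate 1 numbered 6 by library totals, 3 with DESeq2 size factors, 3 by totals without Mir21a, 3 with at least 50 counts and 2 with no count filter, against 1. Over all genes, in that order, 304, 107 and 138 of 556, 99 of 356 and 100 of 804 were higher, against 94 of 556. Members lower there numbered 0 by library totals, against 3, beside 26 and 137 of 556 genes. Mir503, Mir351 and Mir542 turned to 0.57, 0.67 and 0.0258 by library totals and kept their direction under the other 5 alternatives. Mir322 passed the test under 5 of 6 alternatives, all but either-strand counts, and Mir450a-1 under 4, all but either-strand counts and no count filter. Mir322 held 47.1% of its seed group with either-strand counts, in which Mir497 has 0 reads, and 50.9% without near-identical copies. Mir351 held 17.7% of its own without such copies. Leaving the copies out takes relatives from the total and can only raise both shares. It does not correct for reads that may be missing. The median leading share of other clusters was 69.0% with neighbours at most 3 kb apart, a distance that splits the Mir322 cluster after Mir351 and narrows its span of log2 ratios from 1.39 to 0.32. Leaving out a library gave 85.2% to 87.7% for the share of Mir322 in the cluster, 43.9% to 46.5% for Mir322 and 6.83% to 8.21% for Mir351 in their seed groups. Depth limits Mir450a-2 most, with 40 reads in replicate 2. The cause of these differences was not tested.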
